A study of Rattus norvegicus with 20 samples.

Results

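Epithelial cells of the vagina were compared with those of the whisker follicle after both had been transplanted into skin and recovered from it. Each side had 2 RNA-seq samples, so that 4 of the 20 samples of the series were compared, and the 32494 rat genes of the count files were the features, of which 13302 passed a filter on low counts. The donors were Sprague-Dawley rats of the green line CZ-004, SDTgN (act-EGFP)obsCZ-004, whose cells constitutively express EGFP, and every group of the series carried this transgene. The vagina was taken at postnatal day 200 and its cells were a bulk culture. The whisker follicles were taken at postnatal day 57, and their cells had been cloned, so that the recovered group is 1 line, subclone 14. The cells had been cultured on lethally irradiated mouse feeder cells (1st round), transplanted into the skin of newborn mice, recovered from the grafts, cultured again and sorted for EGFP (2nd round). Vagina and whisker cells of the 1st round, 2 samples each, served to ask whether the difference between the tissues was the same before transplantation. The whisker cells of the 1st round were clone 7. The study's methods describe the recovered cells in general as the same cells as before, without naming the descent of subclone 14. A change between rounds and a change of clone can therefore not be told apart on the whisker side. The best samples were chosen for sequencing, and nothing says that the 2 samples of a group came from separate cultures, animals or grafts. The p values rest on the spread within all 10 groups of the series, not on that of the compared samples alone. This spread may be technical. Tissue, donor age, donor sex and growth as a clone or in bulk cannot be told apart here.

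The vaginal lining is a stratified squamous mucosa that responds to sex steroids and is formed without hair. The whisker follicle is an epidermal appendage with its own stem cells, and its placodes and growth depend on Wnt, Eda, Hedgehog and Bmp signals exchanged with the dermis. Keratins, the filament proteins of epithelial cells, differ between the types. Krt4 is a keratin of moist stratified linings, Krt8, Krt18 and Krt19 are keratins of simple epithelia, and Krt10 is a keratin of the cornifying layers of the epidermis.

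The 4 samples held 22714070 to 29824855 gene counts each. Levels are given as CPM, counts scaled to library size by TMM, and 3 counts correspond to 0.104 to 0.138 CPM, a floor that covers counting error only. Spread within a group exceeded counting noise, as the mean chi-square per gene between its samples was 2.88 for recovered vagina and 9.81 for recovered whisker cells. This value was highest in 1st round thymus (42.9) and bladder cells (34.5), which enter the shared estimate of the spread. On the log2 scale the recovered vagina and whisker samples lay at a root mean square distance of 0.891 to 0.925 per gene, against 0.305 and 0.343 between the 2 samples of a group. The same distance was 1.25 to 1.26 between vagina and whisker samples of the 1st round. Of epithelial markers, Dsp, which encodes the desmosomal plaque protein desmoplakin, was at 7230 and 7300 CPM in vagina and 4423 and 5298 CPM in whisker cells. On the mean CPM the keratinocyte marker Col17a1 was 1.35-fold higher in whisker cells, and Epcam was 1.03-fold higher in vagina cells. The basal keratins and most hair keratins had no identifier paired with a symbol in the sources used here, so the tissue labels could be checked on few markers.

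Of 13302 genes tested, 1581 (11.9%) differed between recovered vagina and recovered whisker cells by at least 2-fold at an adjusted p under 0.05 (limma voom). Of these, 756 (5.68%) were higher in vagina cells and 825 (6.2%) were lower, while a further 4203 genes passed the adjusted p at less than 2-fold. The median log2 fold change of all genes was 0.01. A log2 fold change of 5 or more was reached by 48 called genes that were higher, 27 of them without a symbol, and by 31 that were lower, 16 of them without a symbol. Symbols came from supplementary lists of changed genes made on these samples, and were known for 2311 of the genes tested. Among the genes with a symbol 29.4% were called, against 8.21% of the 10991 without one. Counts within gene lists below therefore have to be read against 29.4% as well as 11.9%, and the lists are not independent of these samples.

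**Figure D1:**
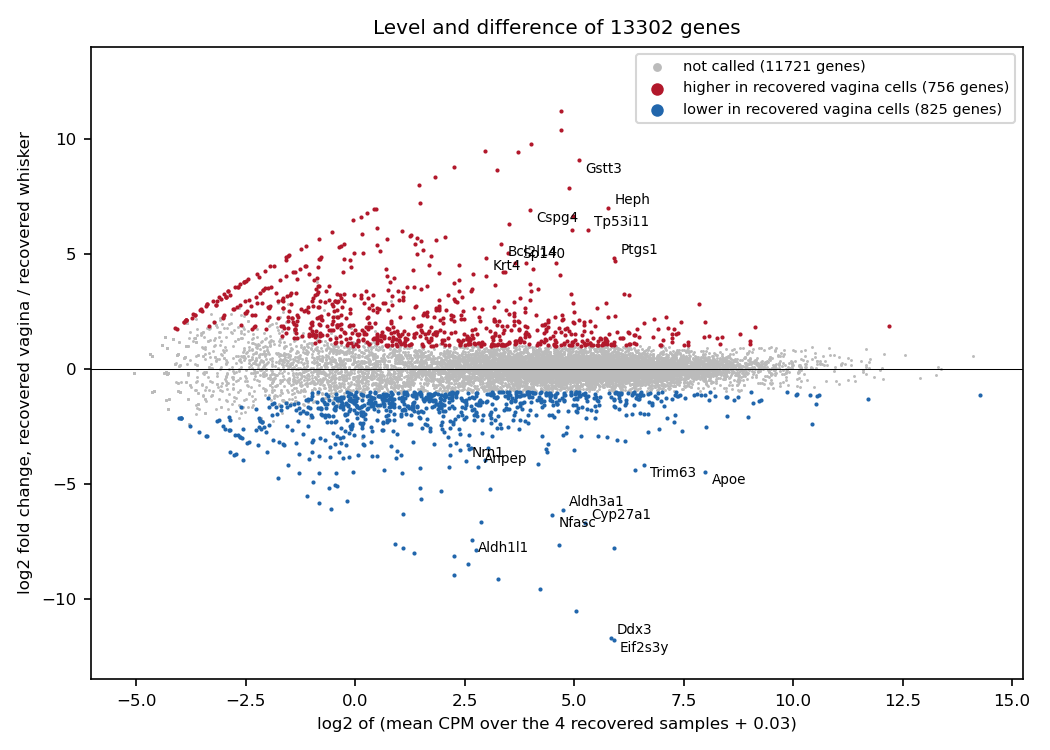
Log2 fold change of recovered vagina over recovered whisker cells (y axis) against the log2 mean level in CPM of the 4 recovered samples (x axis), 1 point per gene, with 18 genes of those furthest apart labelled. The 756 genes higher in vagina cells are red and the 825 lower ones blue, and 627 of these 1581 genes differ by at least 4-fold.

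The keratins separated the groups in opposite directions. Krt4 (ENSRNOG00000032332) was at 15.8 and 14.8 CPM in the recovered vagina samples and at 0.737 and 0.368 CPM in the whisker samples. Both vagina samples were above both whisker samples, with a log2 fold change of 4.83 ± 1.40 (SE) and an adjusted p of 0.0104 (limma). Without whisker replicate 1 or 2 its adjusted p was 0.0698 and 0.0857. Krt8 was at 5.19 and 6.13 CPM in vagina and 0.046 and 0.328 CPM in whisker cells (log2 fold change 5.16 ± 0.70, adjusted p = 2.26e-05, limma), and leaving out whisker replicate 1 or 2 gave 4.03 and 6.36. Its partner Krt18 gave 81 counts over the vagina samples and 3 over the whisker samples, a ratio of 23.7 with an exact 95% interval of 7.81 to 117. Krt19 was at 0.67 and 1.01 CPM against 0.046 and 0.205 CPM (log2 fold change 2.75 ± 0.88, adjusted p = 0.0193, limma). Its adjusted p was 0.0771 without vagina replicate 2. Without whisker replicate 1 its log2 fold change was 1.92 (adjusted p = 0.148, limma), and without whisker replicate 2 it was 3.62 (adjusted p = 0.0538, limma). All 4 mucosal and simple-epithelium keratins that could be tested were called higher in the recovered vagina cells. In such cultures fewer cells of a type and less RNA per cell cannot be told apart. Krt10 was at 321 and 337 CPM in vagina and at 821 and 917 CPM in whisker cells, a fold of 2.64 in favour of whisker on the mean CPM (log2 fold change -1.40 ± 0.11, adjusted p = 6.43e-08, limma). It was the only keratin of the epidermal list that could be tested.

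The promoters of Krt4, Krt8, Krt18 and Krt10 are shown because these genes differed in opposite directions between recovered vagina and whisker cells. They do not mark vagina cells as such. Recovered bladder, trachea and thymus cells of the series had mean Krt4 levels of 287, 233 and 939 CPM. Their means were 278, 249 and 59.7 CPM for Krt8, and 23.2, 6.88 and 6.57 CPM for Krt18. For Krt10 their means were 229, 1.11 and 13.2 CPM. Each line gives the 250 bases before the transcription start in the direction of the gene, from RefSeq on the rat assembly GRCr8, at chr7:134930714-134930963 (minus strand) for Krt4, chr7:135010340-135010589 (minus strand) for Krt8, chr7:135035918-135036167 (plus strand) for Krt18 and chr10:84839161-84839410 (minus strand) for Krt10. Capitals mark TATAA within 45 bases of the start and GCCNNNGGC, a consensus of AP-2 factors such as Tfap2b, anywhere in the window, both searched on both strands, and no match overlapped another.
Krt4: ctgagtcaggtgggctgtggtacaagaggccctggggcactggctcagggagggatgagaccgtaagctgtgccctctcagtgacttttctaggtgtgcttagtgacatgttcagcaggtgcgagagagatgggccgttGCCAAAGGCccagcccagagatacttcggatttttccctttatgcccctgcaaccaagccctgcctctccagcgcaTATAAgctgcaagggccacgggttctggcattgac
Krt8: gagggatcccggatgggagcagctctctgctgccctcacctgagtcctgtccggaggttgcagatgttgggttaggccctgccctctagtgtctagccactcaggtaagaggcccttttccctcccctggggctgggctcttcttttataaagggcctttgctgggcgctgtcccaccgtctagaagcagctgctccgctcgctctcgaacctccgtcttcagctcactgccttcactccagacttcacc
Krt18: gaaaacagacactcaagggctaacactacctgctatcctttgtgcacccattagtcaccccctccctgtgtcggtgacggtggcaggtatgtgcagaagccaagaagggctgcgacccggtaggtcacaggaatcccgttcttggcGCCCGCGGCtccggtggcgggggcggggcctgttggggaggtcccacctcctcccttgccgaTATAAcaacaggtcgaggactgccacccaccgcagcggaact
Krt10: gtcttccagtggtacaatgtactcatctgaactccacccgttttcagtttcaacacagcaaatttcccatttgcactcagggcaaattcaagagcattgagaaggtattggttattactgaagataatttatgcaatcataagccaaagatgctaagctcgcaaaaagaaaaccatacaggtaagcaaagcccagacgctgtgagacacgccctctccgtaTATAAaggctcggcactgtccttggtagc
TATAA began at -35 in Krt4, -42 in Krt18 and -29 in Krt10, and GCCNNNGGC began at -111 in Krt4 and -104 in Krt18. Among the 33469 rat promoters of the same length, 5.25% held TATAA in that window and 12.6% held GCCNNNGGC. These matches are letters only, and no binding was measured.

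Transcription factors of the urogenital tract and foregut were mostly higher in the recovered vagina cells, where 8 of 15 were called higher, 4 lower and 3 not called (median log2 fold change 1.17). Isl1, a LIM homeobox factor, gave 286 counts in vagina and 1 in whisker cells, a ratio of 251 (exact 95% interval 44.6 to 9930). Emx2, a homeobox factor needed for the urogenital tract, was at 13.7 and 16.0 CPM against 4.05 and 3.89 CPM. Elf3, an Ets factor of epithelial differentiation, was at 271 and 265 CPM against 116 and 122 CPM. Foxa1, a pioneer factor of endodermal epithelia, was called as well (1.30 and 1.04 against 0.0921 and 0.246 CPM, adjusted p = 0.0339), but its adjusted p (limma) was 0.0782, 0.17 and 0.101 without vagina replicate 1, whisker replicate 1 and whisker replicate 2. Recovered bladder, trachea and thymus cells had means of 0.0453, 9.86 and 18.0 CPM for Isl1 and 8.16, 13.0 and 8.06 CPM for Emx2. Their means were 736, 317 and 871 CPM for Elf3, and 51.8, 11.6 and 4.74 CPM for Foxa1. Isl1, Elf3 and Foxa1 were thus not particular to vagina cells. Hox genes hold positional identity along the body axis, and the 3 that could be tested were all called higher (median log2 fold change 5.34). Hoxb3 gave 114 counts in vagina and 1 in whisker cells (ratio 99.9, exact 95% interval 17.6 to 3980), Hoxa3 gave 80 and 1 (70.1, 12.2 to 2800), and Hoxb4 gave 27 and 0, at least 7.88-fold higher against a floor of 3 counts over the group. The calls of Isl1, Krt18 and the Hox genes held whichever 1 sample was left out, but with 3 counts or fewer in the low group a fitted fold change depends on how low counts are modelled, so ratios of counts, or a bound for Hoxb4, are given. In the other direction, the Iroquois factor Irx4 was at 0.168 and 0.278 CPM in vagina and at 3.55 and 3.52 CPM in whisker cells, and Wt1, a factor of the urogenital ridge and of kidney, was at 0.587 and 0.661 against 3.13 and 2.95 CPM. Dmrt2 was at 0.0419 and 0.139 against 1.52 and 1.47 CPM, with a log2 fold change of -3.90 ± 0.59 that was -3.28 and -4.59 without vagina replicate 1 or 2. En1 was also called lower (log2 fold change -1.12 ± 0.35), and not without vagina replicate 2 (adjusted p = 0.174, limma) or whisker replicate 2 (adjusted p = 0.127).

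Regulators of the hair follicle were called in 4 of 12 cases (median log2 fold change -0.04), beside 29.4% of all genes with a symbol. The other 8 were not called, and 3 of the 4 called were lower in the recovered vagina cells. Tfap2b, an AP-2 factor of the ectoderm, was at 8.42 and 8.14 CPM in vagina and at 45.2 and 51.8 CPM in whisker cells, 5.86-fold higher in whisker on the mean CPM (log2 fold change -2.55 ± 0.13, adjusted p = 3.85e-10, limma). Tbx1, a T-box factor of hair follicle stem cells, was at 10.5 and 13.8 CPM against 83.2 and 107 CPM, 7.84-fold higher in whisker (adjusted p = 2.55e-09). Both genes were thus well above the floor in the vagina samples while remaining below the whisker samples. Zbtb7c was at 1.55 and 1.95 CPM against 6.08 and 6.43 CPM. Cd34, a marker of bulge cells in rodent skin, was called higher on 18 counts in vagina against 2 in whisker cells (ratio 7.88, exact 95% interval 1.89 to 70.1), and was not called without vagina replicate 1 (adjusted p = 0.109, limma) or whisker replicate 2 (adjusted p = 0.279). Of the genes of hair shaft and inner root sheath, 2 could be tested. Dsg4, a desmoglein of the hair shaft, was at 1.01 and 1.08 CPM in vagina and at 0.276 and 0.123 CPM in whisker cells (log2 fold change 2.38 ± 0.52, adjusted p = 0.00153, limma), and Krtap3-2, a keratin-associated protein of hair, was not called.

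Of 14 genes of the Wnt pathway, 3 were called higher and 1 lower (median log2 fold change -0.10). Wnt4, a ligand needed in the female genital tract, was at 180 and 185 CPM in vagina and 84.2 and 70.7 CPM in whisker cells (log2 fold change 1.24 ± 0.13, adjusted p = 1.47e-06, limma). Dkk3, of the Dickkopf family of secreted proteins, gave 93 counts against 3 (ratio 27.2, exact 95% interval 9.01 to 134). Apc2, a relative of the tumour suppressor Apc, was at 4.15 and 4.11 against 0.553 and 0.205 CPM (log2 fold change 3.55 ± 0.55, and 4.20 and 2.84 without whisker replicate 1 or 2). The Wnt receptor Ror2 was lower, at 0.168 and 0.174 against 0.783 and 0.778 CPM. Of 28 genes of the Hedgehog, Eda, Bmp, Fgf and Notch pathways, 2 were called higher and 4 lower (median log2 fold change -0.29). Gli1, a target and effector of Hedgehog signalling, was at 3.44 and 3.79 CPM in vagina and at 12.9 and 14.2 CPM in whisker cells (log2 fold change -1.90 ± 0.17, adjusted p = 2.67e-07, limma). Bambi, a pseudoreceptor that dampens Bmp and Tgf-beta signals, was at 1.68 and 2.02 against 5.30 and 4.71 CPM, and the Notch ligand homologue Dlk2 was at 50.5 and 50.8 against 116 and 105 CPM. Eda2r, a receptor for an isoform of ectodysplasin, was higher at 20.2 and 23.0 against 7.32 and 7.90 CPM. The remaining 2 calls were lost without some single samples. Bmpr1b, a Bmp receptor called lower at 0.168 and 0.0348 against 0.599 and 0.45 CPM, had an adjusted p of 0.206 without vagina replicate 2 and of 0.0645 without whisker replicate 1. Bmp8b, a ligand called higher at 4.52 and 4.35 against 2.12 and 2.25 CPM, came to a log2 fold change of 0.98 without vagina replicate 1 and 0.97 without whisker replicate 1, under the 2-fold limit.

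Genes of the cornified envelope and of desmosomes split, with 6 of 26 called higher and 7 lower (median log2 fold change -0.15). Higher in vagina cells were Abca12, the lipid transporter of lamellar granules, at 117 and 111 CPM against 34.9 and 40.0 CPM, the desmosomal cadherin Dsg1, at 97.1 and 93.7 against 31.1 and 32.2 CPM, and the protease inhibitor Csta, at 29.3 and 25.6 against 13.6 and 11 CPM. Lower were Klk7, a protease of desquamation, at 3.10 and 2.99 CPM against 21.2 and 12.4 CPM, Crnn (cornulin), at 0.754 and 1.11 against 5.80 and 4.30 CPM, and Calml5, at 14.0 and 14.4 against 51.4 and 53.7 CPM. No pair of groups overlapped for these 6 genes, which were chosen among called genes, so this adds nothing to the calls. Alox12b, a lipoxygenase of the skin barrier, was called lower at 0.545 and 0.209 against 1.43 and 0.86 CPM, but had an adjusted p (limma) of 0.236 without vagina replicate 2 and of 0.111 without whisker replicate 1.

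Of 29 genes of mucosal secretion and surface, 6 were called higher in the recovered vagina cells, 4 lower and 19 not (median log2 fold change 0.57). Tspan8, a tetraspanin of mucosal surfaces, was at 52.7 and 55.1 CPM against 11.1 and 8.56 CPM, 5.5-fold higher on the mean CPM (adjusted p = 1.69e-07, limma). Slc6a14, an amino acid transporter of mucosal epithelia, was at 6.83 and 7.62 against 1.06 and 1.35 CPM. Gcnt3, a mucin glycosyltransferase, gave 12 counts in vagina and 0 in whisker cells, at least 3.5-fold higher against 3 counts over the group, and Muc20 gave 17 and 1 (ratio 14.9, exact 95% interval 2.33 to 622). These 2 calls rested on few counts. Gcnt3 had an adjusted p (limma) of 0.185, 0.0921 and 0.121 without vagina replicate 2, whisker replicate 1 and whisker replicate 2, and Muc20 of 0.0909 and 0.179 without vagina replicate 1 and whisker replicate 2. Lower in vagina cells were Duox2, an oxidase that makes hydrogen peroxide at epithelial surfaces, at 13.9 and 13.1 CPM against 109 and 118 CPM, and Duoxa2, its maturation factor, at 0.503 and 0.348 against 8.75 and 8.11 CPM. The claudin Cldn3 was at 32 and 26.3 against 120 and 112 CPM, and the uroplakin Upk1b, a membrane protein of urothelium, was at 0.377 and 0.522 against 1.66 and 1.72 CPM. Another claudin, Cldn1, was on the vagina side, at 448 and 429 against 168 and 183 CPM.

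Of 22 interferon and antigen presentation genes, 5 were called higher and the other 17 were not called (median log2 fold change 0.56), the 5 being Irf8, Ifi47, Sp100, Cd80 and Irgm. Irf8, a transcription factor of interferon responses, was at 34.5 and 33.0 CPM against 8.20 and 8.39 CPM (log2 fold change 2.02 ± 0.10, adjusted p = 4.39e-10, limma). Among 32 chemokines and inflammatory genes, 5 were called higher and 6 lower (median log2 fold change 0.32). Cxcl14, a chemokine of resting epithelia, gave 170 counts in vagina and 2 in whisker cells (ratio 74.5, exact 95% interval 20.3 to 620), and C1s, a complement protease, was at 30.9 and 28.7 against 9.95 and 10.4 CPM. Il1r2, a decoy receptor for interleukin-1, was at 3.81 and 2.96 CPM against 35.3 and 39.5 CPM (log2 fold change -3.48 ± 0.15, adjusted p = 5.92e-11), and Il36rn, an antagonist of interleukin-36, was at 29.4 and 28.7 against 87.2 and 97.5 CPM. The neutrophil chemokine Cxcl3 was lower too, at 64.1 and 62.2 against 268 and 235 CPM.

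Among the genes of prostaglandin synthesis and its receptors, 3 of 8 were called higher and 1 lower (median log2 fold change 0.11). Ptgs1, the constitutive cyclooxygenase, was at 117 and 116 CPM in vagina and at 4.74 and 3.56 CPM in whisker cells, 28.1-fold higher on the mean CPM (log2 fold change 4.83 ± 0.16, adjusted p = 7.58e-12, limma). Ptgs2, the inducible form, was at 23.6 and 22.4 against 5.85 and 6.75 CPM. Of 37 genes of xenobiotic and retinoid metabolism, 8 were called higher and 6 lower (median log2 fold change 0.23). Gstt3, a glutathione transferase, was at 68.7 and 70.1 CPM against 0.0921 and 0.123 CPM (log2 fold change 9.07 ± 0.73, adjusted p = 8.35e-08). Abcg2, an efflux transporter, was at 32.5 and 31.7 against 1.52 and 1.60 CPM, and Aldh1a3, which makes retinoic acid, was at 15.5 and 15.9 against 4.14 and 3.32 CPM. The dehydrogenases Aldh3a1 and Aldh1a1 were on the whisker side. Aldh1a1, another enzyme of retinoic acid synthesis, was at 3.18 and 3.48 against 13.6 and 13.3 CPM. Aldh3a1 was at 0.754 and 0.696 CPM in vagina and at 53.3 and 52.4 CPM in whisker cells (log2 fold change -6.16 ± 0.29, adjusted p = 2.21e-10).

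Of 10 genes of the basement membrane, 3 were called higher and 1 lower (median log2 fold change 0.15). The type IV collagen chains Col4a1 and Col4a2, which form 1 heterotrimer, were at 52.3 and 60.8 CPM and at 48.5 and 52.8 CPM in the vagina samples, against 19.9 and 16.4 CPM and 13.7 and 12.2 CPM in the whisker samples. Col7a1, the anchoring fibril collagen, was at 811 and 850 CPM against 1547 and 2122 CPM, and without whisker replicate 2 its log2 fold change of -1.13 ± 0.19 came to -0.90, under the 2-fold limit. Of 25 cell cycle genes, 4 were called higher and the other 21 were not called (median log2 fold change 0.42), the 4 being the cyclins Ccne1 and Ccnd2 and the inhibitors Cdkn1c and Cdkn2b. Ccne1 was at 89.6 and 90.8 CPM against 21.7 and 16.3 CPM, and Cdkn1c was at 93.3 and 103 against 38.7 and 38.8 CPM.

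**Figure D2:**
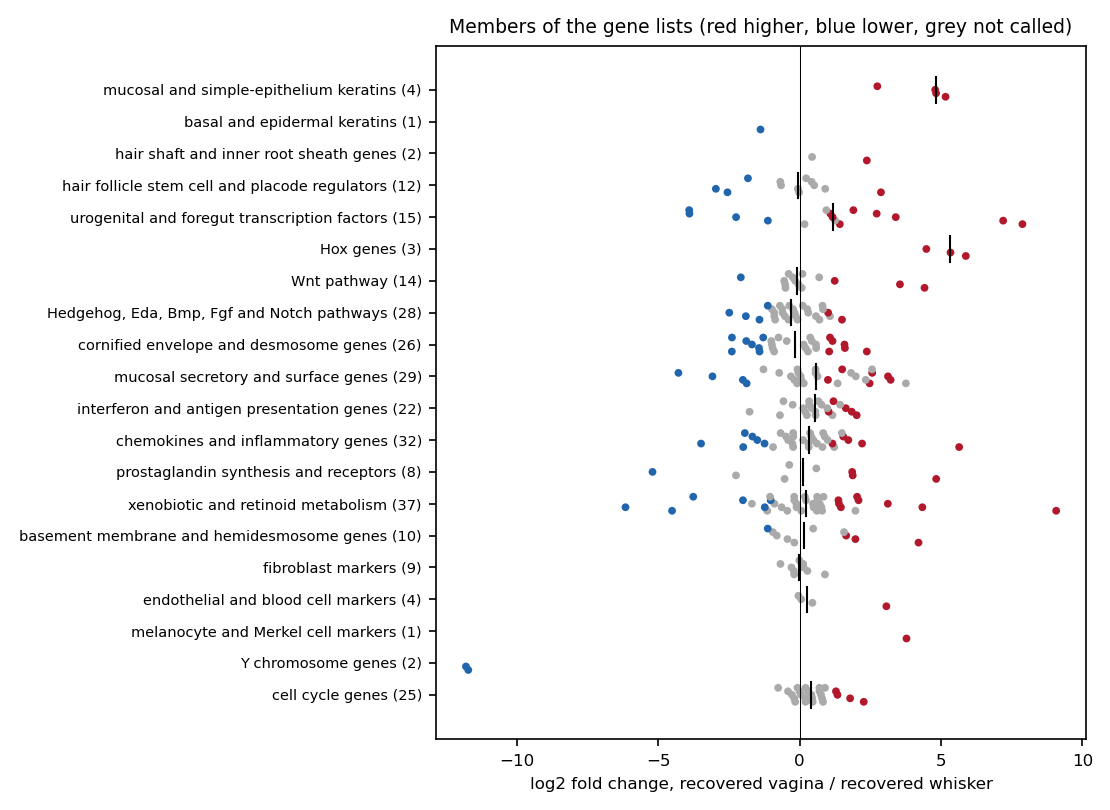
Log2 fold change of recovered vagina over recovered whisker cells (x axis) for every tested member of each gene list (y axis, number tested in brackets), with red for called higher, blue for called lower, grey for not called and a black bar at the median of lists with 3 or more members. The 4 mucosal keratins and the 3 Hox genes are all to the right of 0, and both genes of the Y chromosome list are at the far left. Called genes of the Wnt, cornified envelope, mucosal and chemokine lists lie on both sides of 0.

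Among named genes with at least 10 CPM in the higher group, those furthest apart were of varied function. Heph, a copper oxidase that helps iron leave cells, was at 110 and 107 CPM against 0.829 and 0.819 CPM (log2 fold change 7.00 ± 0.28, adjusted p = 4.99e-11, limma). Cspg4, a cell surface proteoglycan, was at 31.9 and 31.3 against 0.23 and 0.246 CPM. Tp53i11, a p53-induced gene, was at 78.6 and 78.5 against 1.20 and 1.15 CPM, Bcl2l14 at 20.3 and 19.2 against 0.414 and 0.45 CPM, and the nuclear body protein Sp140 at 24.4 and 24.1 against 0.737 and 1.23 CPM. On the whisker side, Apoe, the lipid carrier apolipoprotein E, was at 22.4 and 21.4 CPM in vagina and at 507 and 472 CPM in whisker cells (log2 fold change -4.48 ± 0.19, adjusted p = 5.92e-11). Cyp27a1, a sterol hydroxylase, was at 0.67 and 0.696 against 63.7 and 86.0 CPM, and Nfasc, the adhesion protein neurofascin, was at 0.503 and 0.557 against 45.8 and 44.0 CPM. Trim63, a ubiquitin ligase best known from muscle, was at 10.6 and 9.68 against 163 and 205 CPM. The peptidase Anpep was at 0.503 and 0.835 against 12.6 and 13.7 CPM, and the neurite growth factor Nrn1 was at 0.88 and 0.487 against 11.4 and 10.2 CPM. Aldh1l1, an enzyme of folate metabolism, gave 3 counts in vagina and 577 in whisker cells, a ratio of 220 in favour of whisker (exact 95% interval 74.7 to 1070).

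**Figure D3:**
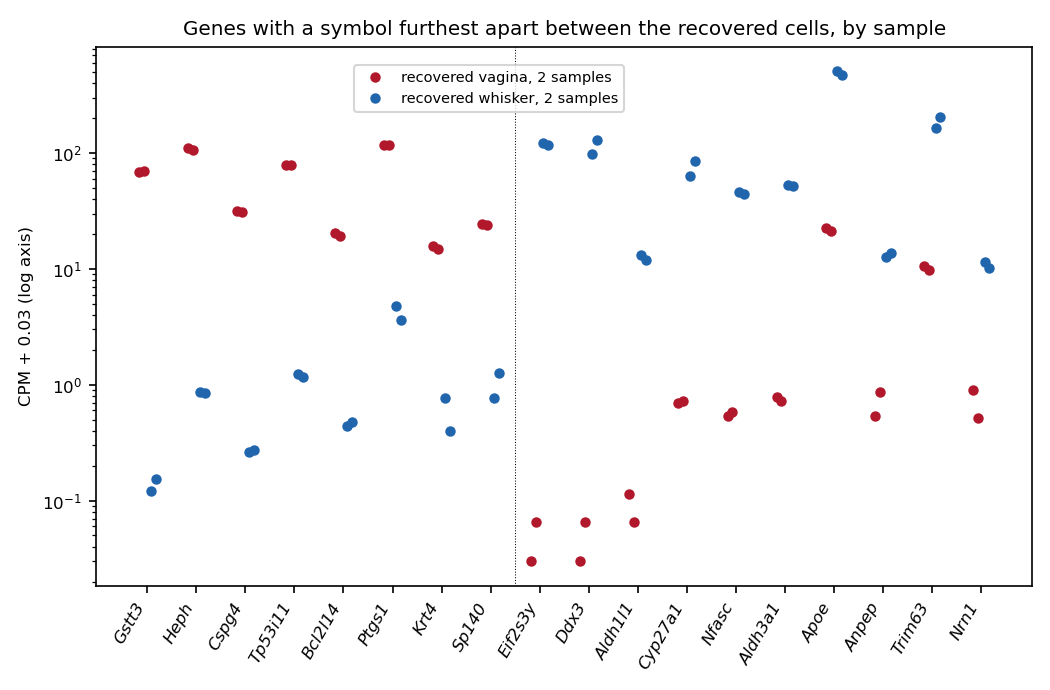
CPM plus 0.03 on a log axis (y) of 8 of the 10 highest and the 10 lowest genes with a symbol (x) in the 2 recovered vagina samples (red) and the 2 recovered whisker samples (blue), with no error bars since each point is 1 sample. Genes with overlapping groups were excluded by the rule that chose these genes. The vagina values of Eif2s3y and Ddx3 are at 0 or 1 count.

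The genes with a symbol that had the most negative log2 fold changes were on the Y chromosome list. Eif2s3y, the Y-linked copy of a translation initiation factor gene, gave 1 count over the vagina samples and was at 122 and 118 CPM in the whisker samples. Ddx3 gave 1 count and was at 98.9 and 129 CPM. Its place on the list rests partly on its likeness to Eif2s3y across these samples. The labels do not state the sex of the whisker donor. In 1st round whisker cells Eif2s3y was at 117 and 124 CPM and Ddx3 at 114 and 120 CPM. Whisker cells thus expressed Eif2s3y and Ddx3 in both rounds, and both genes were at 0 or 1 count in 1st round vagina cells too. The X-linked relative Eif2s3 was at 737 and 721 CPM in vagina and 319 and 303 CPM in whisker cells (log2 fold change 1.23 ± 0.08, adjusted p = 1.08e-08, limma), and reads that align to several places were not counted for either copy. The named genes called higher with the highest CPM were Eif2s3, Cd59 (a complement inhibitor), Cldn1, Elf3 and Anxa3 (an annexin), and those called lower with the highest CPM were Col7a1, Aplp2 (a relative of the amyloid precursor), Krt10, Atg9b (an autophagy protein) and the carboxylesterase Ces2g. Cd59 was at 665 and 650 against 240 and 220 CPM, and Aplp2 at 607 and 615 against 1234 and 1246 CPM. Atg9b had a log2 fold change of -1.01 ± 0.24 and passed below the 2-fold limit without vagina replicate 1 (-0.99) or whisker replicate 2 (-0.84).

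Markers of other cells that the cultures could hold were checked beside these results. Of 9 fibroblast genes, 0 were called in either direction by limma, edgeR or DESeq2, while 2 had an unadjusted p under 0.05 (limma), each at less than 2-fold. Their summed level was 735 and 754 CPM in vagina and 452 and 485 CPM in whisker cells, most of it from Col5a2 at 599 and 598 against 295 and 350 CPM. Without whisker replicate 2, Col5a2 was called (log2 fold change 1.02). Col1a1 was at 13.7 and 15.5 against 23.9 and 22.8 CPM, Dcn was at 0.88 and 1.74 against 1.75 and 1.39 CPM, and no fibroblast marker was at 0. Of 4 markers of blood cells, Lcp1 was called higher at 1.13 and 0.626 against 0.046 and 0.123 CPM, and the summed level was 18.0 and 15.6 against 10.3 and 13.1 CPM. Cd53 was at 0.164 to 0.244 CPM and Coro1a at 0 to 0.126 CPM in the 4 samples, and neither was called. Piezo2, a channel of Merkel cells and touch neurons, was called higher at 3.06 and 3.34 against 0.184 and 0.246 CPM. The part of such cells in the differences was not tested.

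The same contrast before transplantation gave 2469 called genes, on other samples but in the same fit. The study's methods describe recovered cells as the cells that had been transplanted, so the contrasts are not independent. Of the 756 genes higher in recovered vagina cells, 435 (57.5%) had also been higher in the 1st round, which is 33.0% of the 1317 that were higher then, where 9.9% of all genes tested were. Of the 825 lower genes, 442 (53.6%) had also been lower, which is 38.4% of 1152, against 8.66% of all genes tested. A further 55 genes were lower in vagina in the 1st round and higher after recovery, and 59 were higher first and lower after recovery. The test of the difference between rounds itself called 1529 genes (11.5%), of which 675 (5.07%) moved towards vagina and 854 (6.42%) towards whisker. Towards vagina means only that the vagina minus whisker difference rose, and towards whisker that it fell. A move towards vagina can thus be a gain, in vagina cells, of a gene that is higher in whisker cells. The whisker cells were clone 7 in the 1st round and subclone 14 after recovery, and the part of this in the changes was not tested.

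Of the 4 mucosal and simple-epithelium keratins, Krt4, Krt8 and Krt19 passed the test of the change between rounds, with smaller differences between vagina and whisker cells after recovery, and each of these calls was lost without certain single samples. Krt4 had been at 683 and 622 CPM in 1st round vagina cells and 0.457 and 0.469 CPM in whisker cells, so that its log2 difference changed by -5.56 ± 2.00 (adjusted p = 0.0495, limma). This p was at the threshold, and was 0.0514 with DESeq2 size factors, 0.0603 without a filter and 0.064 to 0.186 without any 1 of the 8 vagina and whisker samples (limma). Krt8, at 212 and 274 CPM in 1st round vagina cells, was 43.0-fold higher there than in the recovered cells on the mean CPM, and its log2 difference from whisker cells changed by -3.09 ± 0.82 (adjusted p = 0.00976, limma). Without recovered whisker replicate 1 or 2 the change was -4.21 and -1.89, the latter with an adjusted p of 0.293 (limma). Krt19, first at 27.2 and 35.5 CPM in vagina and 0.374 and 0.281 CPM in whisker cells, changed by -3.73 ± 1.07 (adjusted p = 0.0159, limma), and without recovered whisker replicate 1 or 2 by -4.54 and -2.84, the latter with an adjusted p of 0.196 (limma). Krt18 was at 7.07 and 7.58 CPM in vagina and 0.333 and 0.515 CPM in whisker cells first, and its change of 0.71 ± 1.01 did not pass the test (adjusted p = 0.658, limma). The differences of Krt10 and of the regulators Tfap2b, Tbx1 and Gli1 were smaller after recovery as well. Krt10 had been at 52.6 and 62.8 CPM in vagina and at 1716 and 1351 CPM in whisker cells, and its log2 difference changed by 3.33 ± 0.16 (adjusted p = 6.02e-10). Tfap2b had 2 counts over the 1st round vagina samples and 435 over the recovered ones, a ratio with an exact 95% interval of 55.3 to 1660, while the whisker samples were at 35.3 and 32.9 CPM first and 45.2 and 51.8 CPM after recovery. Its log2 difference changed by 6.57 ± 0.64 (adjusted p = 9.9e-07). Tbx1, first at 2.18 and 1.91 CPM in vagina, changed by 3.17 ± 0.37, and Gli1, first at 0.956 and 0.797 CPM, by 1.69 ± 0.33. Emx2, first at 32.4 and 35.6 CPM in vagina and at 2.08 and 1.92 CPM in whisker cells, changed by -2.16 ± 0.23 (adjusted p = 2.81e-06, limma). For Isl1 (adjusted p = 0.307), Hoxb3 (0.487) and Hoxa3 (0.612) the change did not pass the test. Outside the rule for named genes and chosen after their values were seen, Esr1, the oestrogen receptor, was at 20.6 and 17.1 CPM in 1st round vagina cells and at 0.754 and 0.696 CPM in the recovered ones (change of log2 difference -7.04 ± 0.87, adjusted p = 1.42e-05, limma, and -8.40 and -5.76 without 1st round whisker replicate 1 or 2), and Prom1, a membrane protein of epithelial stem cells, at 621 and 573 against 10.3 and 9.68 CPM (-7.14 ± 0.26, adjusted p = 1.9e-11). Neither was called between the recovered groups by limma, while Esr1 was by edgeR (adjusted p = 0.039) and DESeq2 (adjusted p = 0.0377).

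**Figure D4:**
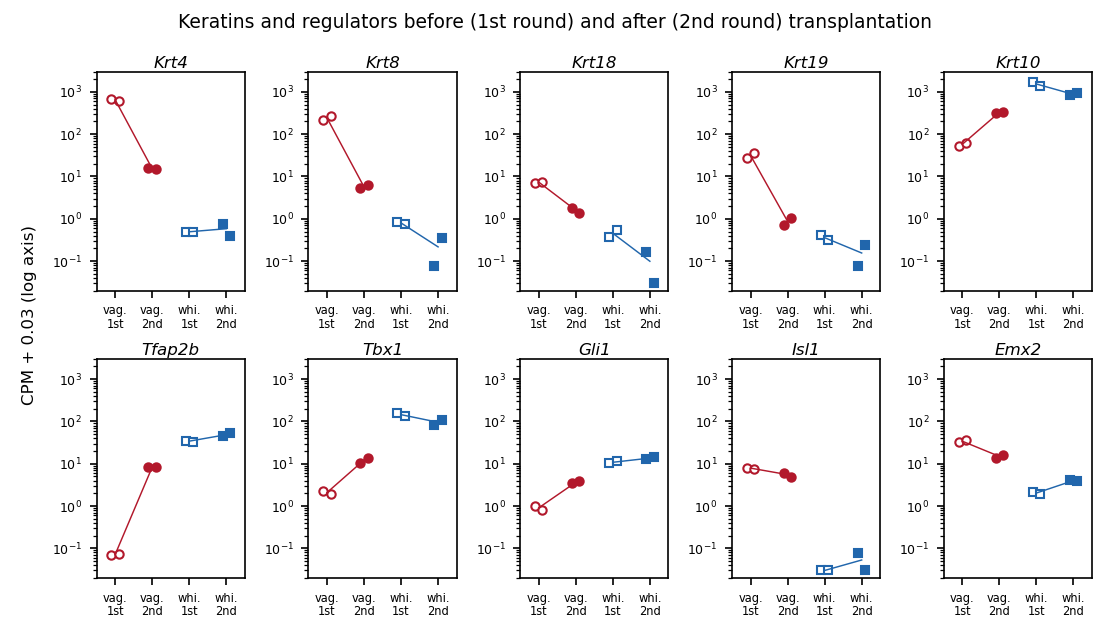
CPM plus 0.03 on a log axis (y) of keratins and regulators in vagina (vag., circles, red) and whisker (whi., squares, blue) samples before (1st, open) and after (2nd, filled) transplantation, 1 point per sample with lines joining the means of 2 samples. Vagina values of Krt4, Krt8, Krt18, Krt19 and Emx2 lie lower in the 2nd round and those of Krt10, Tfap2b, Tbx1 and Gli1 higher, whisker values of Krt8, Krt18 and Krt19 lie lower too, and Isl1 keeps a wide gap.

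Cspg4 had the largest change towards vagina among genes with a symbol and at least 10 CPM in both samples of a group. It was at 0.191 and 0.222 CPM in 1st round vagina cells and at 1.16 and 1.64 CPM in 1st round whisker cells, so that the order of the tissues turned over (change 9.55 ± 0.57, adjusted p = 4.6e-09, limma). The other 4 changes towards vagina narrowed a gap, and Bcl11a and Sh3gl2 were not called between the recovered groups. Bcl11a, a zinc finger repressor, was at 0.191 and 0.0443 CPM in vagina and 28.4 and 23.8 CPM in whisker cells first, and at 6.33 and 8.14 against 10.3 and 11.3 CPM after recovery (change 7.18 ± 0.64, and 8.03 and 6.38 without 1st round vagina replicate 1 or 2). Sh3gl2, an endophilin, was at 21.5 and 21.7 CPM in 1st round whisker cells and on 2 counts in vagina, against 2.85 and 2.91 and 2.77 and 2.44 CPM after recovery (change 8.68 ± 0.66, and 9.77 and 7.67 without 1st round vagina replicate 1 or 2). Wt1 and the kininogen gene Kng2 had whisker levels of 28.7 and 32.8 CPM and of 58.8 and 51.3 CPM first, and of 3.13 and 2.95 CPM and 3.87 and 2.70 CPM after recovery. In recovered vagina cells Wt1 was at 0.587 and 0.661 CPM and Kng2 at 0.838 and 0.766 CPM. Both were still called lower there than in recovered whisker cells. Their changes were 6.71 ± 0.58 and 7.24 ± 0.67, the second being 6.48 and 7.93 without 1st round vagina replicate 1 or 2.

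The 5 largest changes towards whisker were those of genes that were much lower in recovered than in 1st round vagina cells. Csmd1, a membrane protein with complement control domains, gave 561 counts in 1st round vagina cells and 2 after recovery, a ratio of 304 (exact 95% interval 83.7 to 2510). Col4a4, a type IV collagen chain, was at 54.0 and 49.9 CPM first and at 0.0838 and 0.104 CPM after recovery (change -7.31 ± 1.05, and -7.99 and -6.58 without recovered whisker replicate 1 or 2). Cndp1, a carnosinase, was at 96.8 and 102 CPM first and 1.05 and 0.835 CPM after recovery (change -7.51 ± 1.35, and -6.60 and -8.35 without 1st round whisker replicate 1 or 2). Timd2, a cell surface receptor, gave 752 counts first and 3 after recovery, and 0 counts in whisker cells of either round. Its change (-7.71 ± 1.45, adjusted p = 8.26e-04 by limma) had an adjusted p of 1 in edgeR and stayed called in every other alternative run. In several of these genes a group had 3 counts or fewer, and the size of the fitted change then depends on how low counts are modelled. Ifit2, an interferon-induced gene, was at 28.4 and 29.4 CPM in vagina and 0.125 and 0.328 CPM in whisker cells first, and at 1.47 and 1.29 against 2.49 and 2.01 CPM after recovery (change -7.71 ± 0.58, and -7.06 and -8.32 without 1st round whisker replicate 1 or 2).

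**Figure D5:**
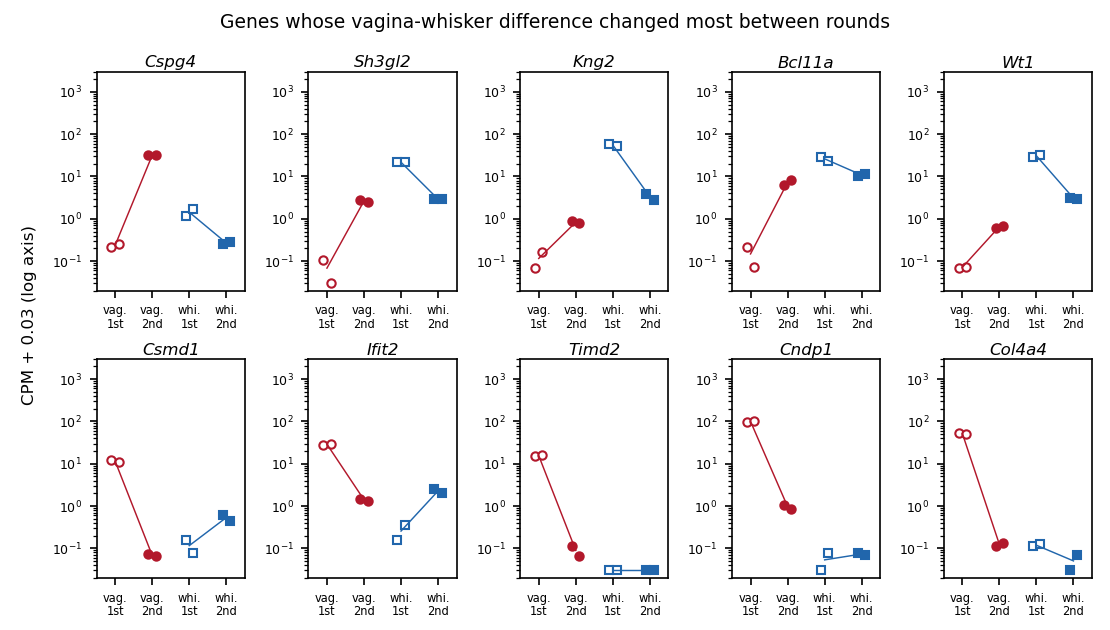
CPM plus 0.03 on a log axis (y) of the 5 named genes with the largest change towards vagina (upper row) and the 5 with the largest change towards whisker (lower row), in vagina (vag., circles, red) and whisker (whi., squares, blue) samples before (1st, open) and after (2nd, filled) transplantation. Lines join the means of 2 samples. In the upper row the order of tissues turns over for Cspg4, and in the lower row the vagina values lie lower in the 2nd round for all 5 genes.

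Named genes whose order turned over between rounds included both type IV collagen chains, which were lower in vagina than in whisker cells before transplantation and higher after it. Col4a1 was at 7.15 and 8.24 CPM in 1st round vagina cells against 25.9 and 31.9 CPM in whisker cells, and Col4a2 at 3.94 and 5.4 against 28.2 and 30.8 CPM. Their log2 differences changed by 3.55 ± 0.24 and 4.66 ± 0.25 (adjusted p = 2.01e-08 and 1.55e-09, limma). Abca12 and C1s turned over the same way, by 3.52 ± 0.24 and 2.84 ± 0.14. Csf3, a growth factor of granulocytes, turned over the other way, from 66.6 and 62.7 against 3.58 and 3.61 CPM to 7.21 and 7.03 against 21.8 and 18.5 CPM (change -5.66 ± 0.49, adjusted p = 2.83e-07). Upk1b, at 36.3 and 39.8 against 4.12 and 4.31 CPM in the 1st round, did so as well (change -5.04 ± 0.54). The zinc finger gene Bnc2, which missed the limit of 10 CPM in 1 sample and was chosen after its values were seen, was at 0 and 0.133 CPM in vagina and 9.98 and 10.2 CPM in whisker cells first, and at 4.94 and 5.01 against 0.046 and 0.164 CPM after recovery (change 13.04 ± 1.10, adjusted p = 2.21e-07, limma). Its change was 11.46 and 14.49 without 1st round vagina replicate 1 or 2, and 12.36 and 13.77 without recovered whisker replicate 1 or 2.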

How the data were processed

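RNA of cultured rat epithelial cells was sequenced in 10 groups of 2 samples. According to the labels and methods, the authors trimmed reads with cutadapt 1.8, aligned them to Rnor_6.0 with STAR 2.5.2b, and deposited raw read counts per Ensembl gene from HTSeq 0.6.1. Reads aligning to several places were not counted for genes, which lowers near-identical copies. Entries that name no gene held 45% to 46.4% of the entries of the compared samples and were left out. Groups are tissue and round of culture, per the labels.

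Genes with at least 1 CPM in 1 of the 20 samples were kept. Counts were scaled by TMM (edgeR 4.0.16) and fitted in R 4.3.3 by limma 3.58.1 with voom, as the study's methods use these tools, with all 20 samples sharing 1 estimate of the spread (10 residual degrees of freedom). A gene was called where its fold was at least 2 and its Benjamini-Hochberg adjusted p, over all genes tested, was under 0.05. The change between rounds was an interaction contrast. For a group with 1 to 3 summed counts the ratio of counts with its exact 95% interval is given, and against 0 counts a bound from 3 counts over the group. Exact permutation of 2 against 2 samples cannot go below p = 0.33, so no such test was made. On simulated counts for the recovered contrast, limma called 100% of 100 genes changed 3-fold and of 100 changed 6-fold, with 5 false calls among 13153 genes. The changed genes were drawn from those well counted in recovered whisker cells, and every gene was simulated with the same spread. The simulation therefore does not cover genes with few counts, or spread that differs between genes and groups as it does here.

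Symbols came from supplementary lists of the study. Positions of genes on the build of the counts are not given, since the annotation used here is of GRCr8. The comparison, the gene lists and the rule for named genes were chosen with earlier results of these data known. The rule took the 10 highest and 10 lowest called genes by fold change with a usable symbol, no overlap and 10 CPM or more in each sample of the higher side, the 5 called genes of highest CPM per direction, the 5 largest changes between rounds per direction among genes at 10 CPM or more in both samples of a group, up to 4 called members per direction of each list, and all members of lists of other cells. Of these, 3 genes are not reported here and were not replaced. Genes outside it are said to be chosen after their values were seen. Alternatives were edgeR's quasi-likelihood test, DESeq2 1.42.0 (Wald test), its size factors in limma, no filter and a filter on 2 samples, the replicate number as a block, a higher fold threshold, a fit to the compared samples alone, and each sample left out. Same-numbered samples deviated together with r = 0.155 between the recovered groups, and with r from -0.026 to 0.046 between other pairs of groups, so the numbers were not taken as pairs.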

Additional observations from a re-analysis of the deposited data

Results flagged for a closer look

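The difference between vagina and whisker cells was not the same before and after transplantation, by a test of the change itself (interaction contrast, limma voom) over 4 groups of 2 samples. It changed for 1529 genes, 675 of them towards vagina and 854 towards whisker. These directions give only the sign of the change in vagina minus whisker, not a likeness to either tissue. For genes named in the text, called changes of the log2 difference were as follows, and fitted sizes of genes with 3 counts or fewer in a group depend on how low counts are modelled. The difference moved towards vagina by at least 5 on the log2 scale for Bnc2 (13.0), Cspg4 (9.55), Sh3gl2 (8.68), Kng2 (7.24), Bcl11a (7.18), Wt1 (6.71) and Tfap2b (6.57). It moved towards vagina by 3 to 5 for Sdr16c6 (4.76), Col4a2 (4.66), Klk7 (4.12), Il1r2 (4.09), Col4a1 (3.55), Abca12 (3.52), Krt10 (3.33), Tbx1 (3.17) and Il36rn (3.11). It moved towards vagina by 2 to 3 for Dsg4 (2.98), C1s (2.84), Cxcl14 (2.64), Anpep (2.55), Irx4 (2.46), Ror2 (2.44), Dsg1 (2.43), Col5a2 (2.39) and Cdkn1c (2.16). It moved towards vagina by less than 2 for Aldh1a3 (1.98), Bcl2l14 (1.82), Duox2 (1.72), Gli1 (1.69), Zbtb7c (1.48), Apoe (1.15), Dsp (1.09) and Calml5 (1.06). The difference moved towards whisker by at least 5 on the log2 scale for Csmd1 (-9.98), Ifit2 (-7.71), Timd2 (-7.71), Cndp1 (-7.51), Col4a4 (-7.31), Prom1 (-7.14), Esr1 (-7.04), Csf3 (-5.66), Krt4 (-5.56) and Upk1b (-5.04). It moved towards whisker by 3 to 5 for Coro1a (-4.57), Aldh1l1 (-4.49), Dmrt2 (-4.18), Bmpr1b (-3.97), Muc20 (-3.86), Cyp27a1 (-3.84), Krt19 (-3.73), Ifi47 (-3.68), Aldh3a1 (-3.54) and Krt8 (-3.09). It moved towards whisker by 2 to 3 for Heph (-2.66), Ptgs1 (-2.26), Emx2 (-2.16), Aldh1a7 (-2.14), Tspan8 (-2.11) and Irgm (-2.07). It moved towards whisker by less than 2 for Cd68 (-1.98), Cxcl3 (-1.91), Csta (-1.87), Slc6a14 (-1.78), Ces2g (-1.68), Sp100 (-1.36), Crnn (-1.26), Bmp8b (-1.24), Ccnd2 (-1.19) and Anxa3 (-1.02). Only 31 changes between rounds were run under the alternatives, so many of those listed here were not checked in this way. Among the 31, the calls of Krt4, Krt8, Krt19 and Timd2 did not hold under every alternative. That of Gli1 was lost at the higher fold threshold only. Groups of 2 samples are too small to test single samples as outliers.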

How the results depend on the processing

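The counts of genes that differed between recovered vagina and whisker cells and of genes whose difference changed between rounds stayed within 1.5 times under edgeR (1594 and 1490), DESeq2 (1528 and 1459), DESeq2 size factors, both other filters and fits of only the compared samples. The 4 samples alone gave 1346. Without a filter 1955 and 1763 genes were called, and the median log2 fold change of all genes moved to -0.11. With a log2 fold change of at least 2 required, a stricter threshold by construction, 627 genes differed (358 higher, 269 lower), and 745 changed between rounds (308 towards vagina, 437 towards whisker). Leaving out each sample in turn gave 1291 to 1539 genes (higher 618 to 704, lower 673 to 871) and 1303 to 1451 changes (towards vagina 555 to 682, towards whisker 697 to 794). The replicate numbers follow the order of the samples and do not pair them, and a fit with the number as a replicate block gave 1595 and 1569 genes. No called result reversed. Of 119 named genes, 68 stayed on their side of the threshold under each alternative run, 35 moved only at the higher fold threshold and 16 under other alternatives. Of 31 changes between rounds 26 stayed, Gli1 moved only at the higher fold threshold, and Krt4, Krt8, Krt19 and Timd2 lost their call under others. The cause was not tested. At this depth 0 counts in a sample allow a level of up to 0.104 to 0.138 CPM (3 counts).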
